A study of Mus musculus with 4 samples.

Results

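A set of 10 genes of efferocytosis, the uptake of dying cells by phagocytes, were followed in livers with acute-on-chronic liver failure (ACLF), in which acute injury strikes a chronically diseased liver. They were chosen by name: the receptor kinases Mertk, Axl and Tyro3, the ligands Gas6, Pros1 and Mfge8, the integrin subunits Itgb3 and Itgav, and the scavenger receptors Stab1 and Lrp1. All 10 of 10 were found among the 21959 genes of the deposited table, and all 10 were among the 12657 genes with enough counts to be tested. RNA was sequenced from 4 livers of mice labelled WT, all with ACLF. The 2 livers of the baicalein group came from mice given baicalein, a flavone of Scutellaria baicalensis root, and the 2 of the saline group from mice given saline. The labels give no dose, time, age, strain or sex, do not say how ACLF was induced, and do not state that each liver came from its own animal, so the spread behind each p-value is that of these livers and may be technical in part. Healthy livers were not analysed here.

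A dying cell exposes phosphatidylserine on its surface. The TAM receptors, named after Tyro3, Axl and Mertk, do not bind this lipid themselves but bind Gas6 and protein S (the product of Pros1), whose vitamin K-dependent Gla domains hold the lipid. Gas6 binds all TAM receptors, protein S binds Tyro3 and Mertk. Mfge8 bridges the same lipid to integrins that contain the subunit encoded by Itgav, while stabilin-1 (Stab1) binds the lipid directly and Lrp1 takes up cells marked by calreticulin or complement C1q. In liver, Kupffer cells, the resident macrophages, and sinusoidal endothelial cells clear dying cells.

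The upstream sequences of Mertk and Axl, which were both higher with baicalein, and of Gas6, the ligand that was high in 1 liver, are given first. Each run is the 250 bases before the RefSeq start of the gene (build GRCm38.p6), written 5′ to 3′ on the gene's strand, with the motifs found by the search in capitals.
Mertk, chr2:128698665-128698914, plus strand: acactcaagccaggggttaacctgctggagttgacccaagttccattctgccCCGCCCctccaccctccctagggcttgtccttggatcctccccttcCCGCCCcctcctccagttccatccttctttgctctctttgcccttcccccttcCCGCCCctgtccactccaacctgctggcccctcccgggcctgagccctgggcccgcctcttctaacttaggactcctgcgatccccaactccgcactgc
Axl, chr7:25788734-25788983, minus strand: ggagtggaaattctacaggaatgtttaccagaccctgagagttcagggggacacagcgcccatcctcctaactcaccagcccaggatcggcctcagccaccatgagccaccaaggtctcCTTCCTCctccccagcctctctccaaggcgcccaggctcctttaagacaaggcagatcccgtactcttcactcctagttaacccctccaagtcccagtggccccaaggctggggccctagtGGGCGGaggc
Gas6, chr8:13494536-13494785, minus strand: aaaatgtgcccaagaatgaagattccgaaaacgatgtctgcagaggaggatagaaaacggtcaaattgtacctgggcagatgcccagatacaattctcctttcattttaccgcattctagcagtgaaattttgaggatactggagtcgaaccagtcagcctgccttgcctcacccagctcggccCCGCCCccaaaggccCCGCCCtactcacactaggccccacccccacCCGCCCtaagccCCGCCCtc

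The search covered 6 motifs on both strands: the GC box (GGGCGG), the CCAAT box (CCAAT), the TATA box (TATAAA), the AP-1 site (TGANTCA), the nuclear receptor element (AGGTCA) and the core of PU.1 sites (GAGGAAG), PU.1 being the factor of the myeloid lineage. The GC box was found 3 times before Mertk, once before Axl and 4 times before Gas6, and the PU.1 core once, before Axl, 131 bases from the start; no 2 motifs overlapped in these 3 runs. RefSeq gave an upstream sequence for 9 of the 10 genes, of which 7 held a GC box, against 32.7% of all 32851 upstream sequences. The PU.1 core was in 2 of the 9 (10.6% of all), the CCAAT box in 1 (33.8%), and the TATA box, the AP-1 site and the nuclear receptor element in 0 (12.4%, 6.75% and 14.0%). These 3 runs were 63.6%, 60.0% and 54.8% G or C for Mertk, Axl and Gas6, against a median of 52.4% over all. All 9 runs lay above this median, up to 73.2% for Tyro3, and the GC box is itself all G and C. The Tyro3 run overlaps an annotated exon of Tyro3. A match to these letters does not show that a factor binds.

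Some features of the libraries touch the values below. The 4 libraries held 13976440 to 18731616 counts. Summed over 16 skeletal muscle markers, baicalein 2 had 2394 CPM (read counts scaled to normalised library size) and saline 1 had 6861 CPM. Baicalein 1 had 3.85 CPM and saline 2 had 7.51 CPM, so that 1 liver of each group carried muscle RNA. These 2 livers were not alike in it. Myh4 had 30.3 CPM in baicalein 2 and 1553 CPM in saline 1, and Myh2 had 238 and 102 CPM. Crossed pairs below set baicalein 2 against saline 1 and baicalein 1 against saline 2, which does not match the amount of muscle RNA. Over 4 Y-linked genes, the baicalein livers had 2 and 1 counts and the saline livers 820 and 836. For every gene below, treatment and this Y-linked pattern cannot be told apart.

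Mertk, Axl and Itgb3 were higher in the baicalein livers than in the saline livers, by about 2.04-fold, 1.80-fold and 2.90-fold, and none of the 10 was called lower. Of all tested genes, 7.65% were called higher and 7.90% lower at adjusted p below 0.05 (edgeR's quasi-likelihood test with Benjamini-Hochberg adjustment). The other 7 genes were not called, and they held both shared and uneven patterns. Tyro3 and Stab1 were higher in both baicalein livers but missed the threshold, Gas6 was high in 1 baicalein liver, and Pros1, Mfge8, Itgav and Lrp1 had log2 fold changes from -0.02 to 0.08. For 6 of the 10 genes both baicalein livers lay above both saline livers, as for 29.7% of all tested genes, and for 0 of the 10 they lay below, as for 29.5% of all. The 6 include Gas6, whose baicalein 1 value of 44.0 CPM barely exceeded the 43.6 CPM of saline 1. The median log2 fold change of the 10 was 0.57, against 0.01 over all tested genes. Mertk, Axl and Itgb3 passed under all 13 alternatives. Of all tested genes, 7.69% were higher with RLE scaling, 8.98% with upper-quartile scaling, 6.83% in DESeq2, 7.73% in limma-voom, 6.31% with no filter, 8.05% at a mean CPM of at least 1 and 7.66% with scaling blind to skeletal muscle genes. The share was 4.20% with the replicate number blocked and 14.3% with crossed pairs. It was 4.20%, 3.89%, 4.97% and 4.60% without saline 1, saline 2, baicalein 1 and baicalein 2.

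**Figure D1:**
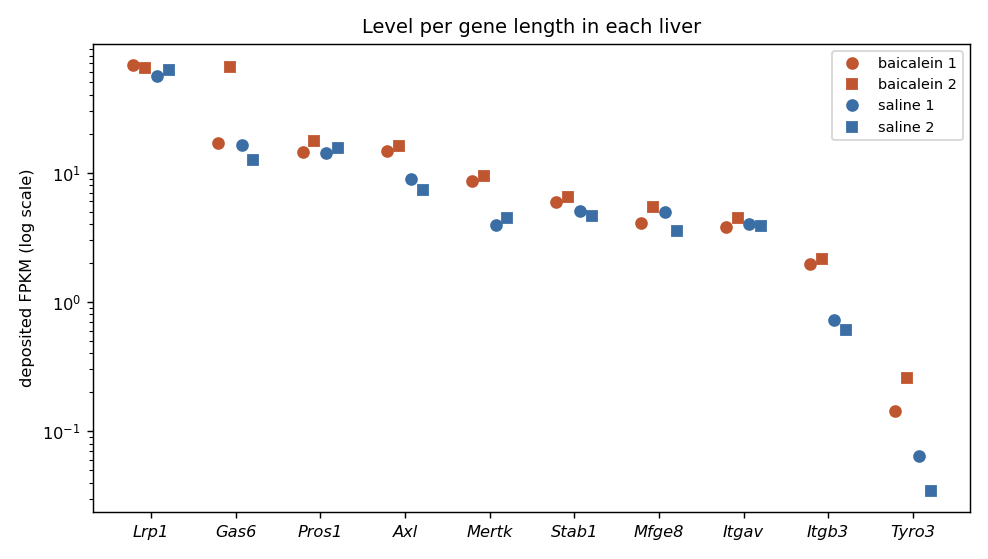
Deposited FPKM (log axis) of the 10 genes in each of the 4 livers, ordered by mean level; circles are liver 1 and squares liver 2 of each group. Lrp1 lies at 56.3 to 67.8 FPKM in all 4 livers, and Gas6 reaches 65.2 FPKM in baicalein 2 alone.

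Levels were compared between genes by the deposited FPKM, which are scaled by gene length. Lrp1, a very large endocytic receptor that hepatocytes also make, was highest, at 62.9 FPKM on average over the 4 livers. Gas6 followed at 27.8, Pros1 at 15.5, Axl at 11.8, Mertk at 6.58, Stab1 at 5.52, Mfge8 at 4.51, Itgav at 4.03, Itgb3 at 1.36 and Tyro3 at 0.125 FPKM. Lrp1 stood above 94.3% of tested genes and Tyro3 above 1.90%. The order did not hold in every liver. Mertk exceeded Stab1 in both baicalein livers (8.62 and 9.35 against 5.92 and 6.50 FPKM) and lay below it in both saline livers (3.90 and 4.44 against 5.02 and 4.64 FPKM). Lrp1 exceeded Gas6, Gas6 exceeded Pros1, Pros1 exceeded Axl and Mfge8 exceeded Itgav in 3 of 4 livers each. The differences between genes were not tested.

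Mertk, the TAM receptor best known from macrophages that clear dying cells, had 552 and 759 counts in the baicalein livers and 299 and 269 counts in the saline livers. In CPM this was 38.0 and 37.9 with baicalein against 17.6 and 19.6 with saline. The groups did not overlap, and the baicalein livers lay closer together than the saline livers. The log2 fold change was 1.03 (SE 0.11, 95% interval 0.77 to 1.28, adjusted p = 5.60e-04, edgeR). In crossed pairs, baicalein 1 exceeded saline 2 by 0.95 and baicalein 2 exceeded saline 1 by 1.11 on the log2 scale.

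Axl, a TAM receptor bound by Gas6, stood at 75.2 and 76.0 CPM in the baicalein livers against 46.4 and 37.3 CPM in the saline livers. Both baicalein livers lay above both saline livers, and the saline livers were the more spread. Its log2 fold change was 0.85 (SE 0.12, 95% interval 0.59 to 1.11, adjusted p = 0.00172, edgeR). The crossed pairs gave 1.01 for baicalein 1 over saline 2 and 0.71 for baicalein 2 over saline 1.

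Tyro3, the remaining TAM receptor, was near the detection limit, with 13 and 30 counts in the baicalein livers and 7 and 3 counts in the saline livers. At 0.894 and 1.50 CPM with baicalein against 0.412 and 0.219 CPM with saline the groups did not overlap, and the livers within each group differed too. The log2 fold change of 1.89 (SE 0.67, 95% interval 0.36 to 3.41) did not pass (adjusted p = 0.0961, edgeR). It passed in a fit with the crossed pairs, which were chosen after the data were seen (adjusted p = 0.0229, edgeR). That fit called 14.3% of all tested genes higher, against 7.65% without pairs.

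The summed TAM receptor level was 23.5 and 25.8 FPKM in the baicalein livers and 12.8 and 11.8 FPKM in the saline livers. Axl made up 62.7% and 62.7% of this sum with baicalein and 69.1% and 61.9% with saline. Mertk made up 36.7% and 36.3% with baicalein and 30.4% and 37.8% with saline. Tyro3 made up at most 1.00% in any liver. The shares of Axl and Mertk thus overlapped between the groups while the sum did not.

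**Figure D2:**
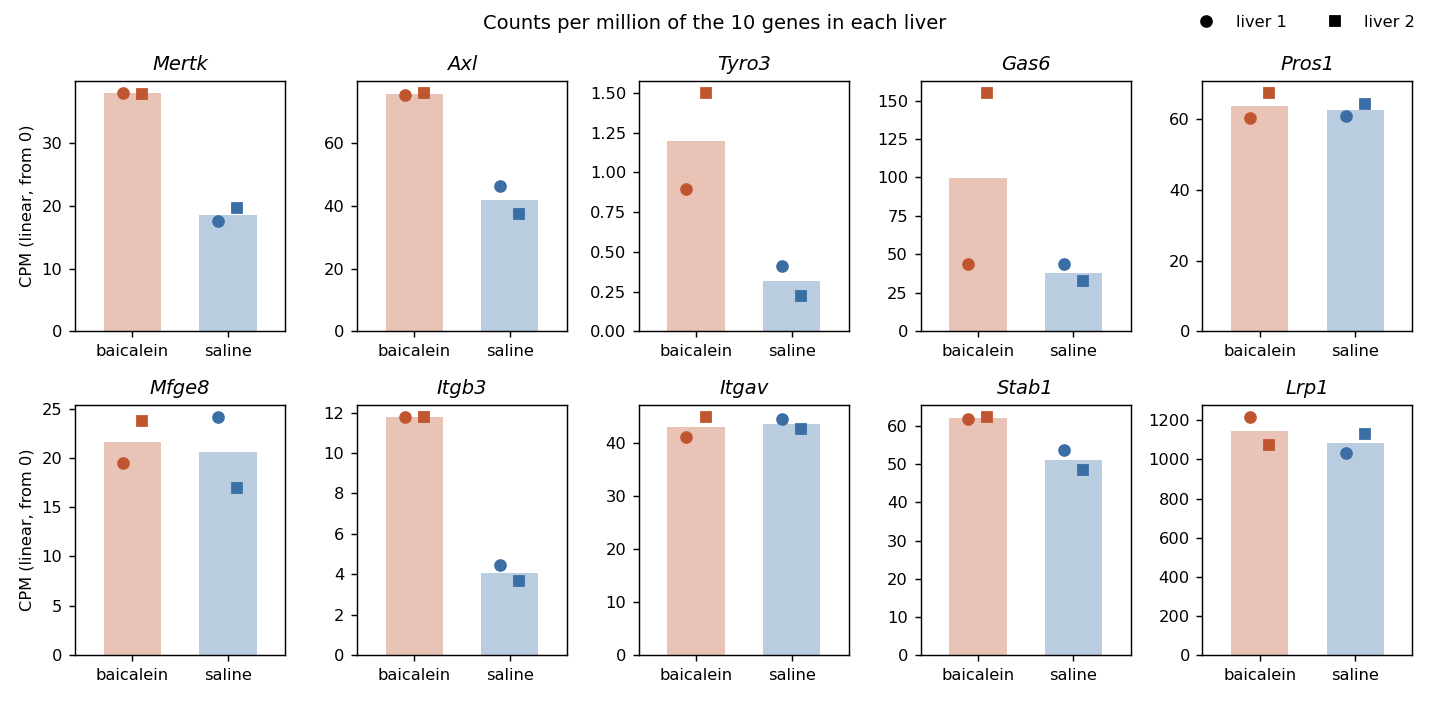
CPM of each of the 10 genes (linear axis from 0) in the baicalein livers (left) and saline livers (right) of each panel; bars are group means of 2 livers and points are single livers. Mertk, Axl and Itgb3 separate the groups with little spread, while the Gas6 mean with baicalein is carried by liver 2.

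The ligands did not move as a group. Pros1, which hepatocytes make in quantity and release into plasma, had 60.2 and 67.4 CPM in the baicalein livers and 60.8 and 64.3 CPM in the saline livers. The saline range lay inside the baicalein range, and the log2 fold change was 0.03 (SE 0.10, 95% interval -0.19 to 0.25, adjusted p = 0.895, edgeR). Mfge8, the milk fat globule protein, was also overlapping, at 19.5 and 23.8 CPM in baicalein livers and 24.2 and 17.0 CPM in saline livers. Its log2 fold change was 0.07 (95% interval -0.41 to 0.55, adjusted p = 0.860, edgeR).

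Gas6 had 640 and 3110 counts in the baicalein livers and 741 and 445 counts in the saline livers, that is 44.0 and 155 CPM against 43.6 and 32.5 CPM. Baicalein 1 was level with saline 1, and baicalein 2 alone was high. The log2 fold change of 1.39 had an SE of 0.89 and a 95% interval from -2.20 to 4.98, and did not pass (adjusted p = 0.467, edgeR). Without baicalein 2 it was 0.21 (adjusted p = 0.629), and without baicalein 1 it was 2.02 (adjusted p = 0.0150), where the lone liver was assumed to vary like the saline livers.

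In the same liver, several markers of other tissues were high. Krt19, a keratin of bile duct and other epithelia, had 1.58 and 72.2 CPM in the baicalein livers against 2.29 and 1.24 CPM in the saline livers. Myh11, the myosin of smooth muscle, had 3.37 and 108 CPM with baicalein against 6.58 and 4.81 CPM with saline. Actg2, a smooth muscle actin typical of gut that did not pass the count filter, had 0.413 and 22.7 CPM against 0.176 and 0.0729 CPM. Not every smooth muscle marker was high there. Tagln had 0.138 and 0.200 CPM with baicalein against 0.118 and 0.146 CPM with saline. Smtn had 4.47 and 13.7 CPM with baicalein against 9.88 and 5.03 CPM with saline. Over the 8 smooth muscle markers the sum was 19.3 and 390 CPM with baicalein and 213 and 18.2 CPM with saline, and over the 8 bile duct markers it was 102 and 229 CPM against 134 and 128 CPM. The bile duct list did not move as 1: its only called genes, Sox9 and Spp1, were both lower, Sox9 at 4.40 and 6.24 CPM with baicalein against 13.2 and 10.6 CPM with saline, and Spp1 at 20.4 and 24.1 CPM against 50.3 and 49.7 CPM. Sox9 did not pass where saline 1 or baicalein 1 was dropped (largest adjusted p 0.0734) or with the replicate number blocked. The smooth muscle sum of saline 1 came mostly from Des (151 CPM) and Synpo2 (32.3 CPM), while its Myh11 and Actg2 were low. Des was high in the livers with skeletal muscle RNA, at 101 CPM in baicalein 2 and 151 CPM in saline 1. It had 6.26 CPM in baicalein 1 and 2.63 CPM in saline 2. The part of other tissues in the Gas6 level was not tested. The 4 genes whose pattern over the livers was closest to that of Gas6 were Clstn1, Gja1, Golm1 and Ezr, with root mean square distances of 0.109, 0.126, 0.137 and 0.139 in centred log2 CPM; this look at Gas6 was chosen after its values were seen. Ezr, encoding the epithelial membrane linker ezrin, had 11.8 and 40.7 CPM in baicalein livers and 9.46 and 9.19 CPM in saline livers.

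**Figure D3:**
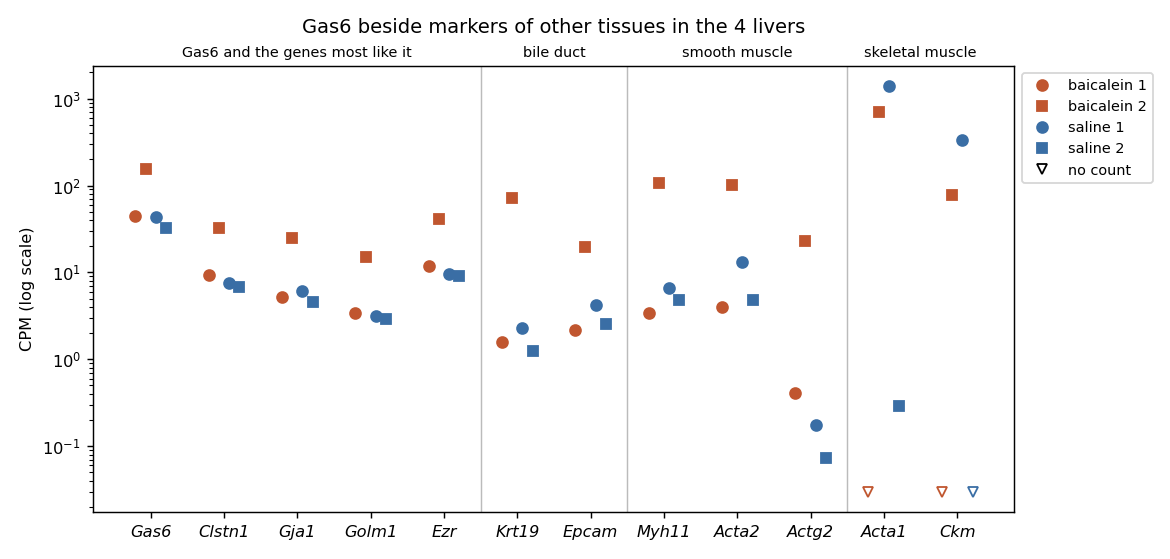
CPM (log axis) in each liver of Gas6, of the 4 genes closest to it in pattern, and of markers of bile duct, smooth muscle and skeletal muscle; open triangles mark livers without a count. Baicalein 2 is the highest liver for Gas6, Krt19, Epcam, Myh11, Acta2 and Actg2, whereas saline 1 is the highest for Acta1 and Ckm.

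The balance of receptor and ligand transcripts followed these values. Gas6 and Pros1 together had 31.5 and 82.8 FPKM in the baicalein livers and 30.8 and 27.9 FPKM in the saline livers. Gas6 supplied 54.0% and 78.7% of this sum with baicalein, against 53.5% and 44.7% with saline. The TAM receptor sum per unit of Gas6 plus Pros1 was 0.745 and 0.311 with baicalein and 0.417 and 0.421 with saline, so the baicalein livers lay on both sides of the saline livers. Per unit of Pros1 alone it was 1.62 and 1.46 with baicalein and 0.897 and 0.761 with saline, which did not overlap. Axl, at 61.9% to 69.1% of the receptor sum, is not among the receptors named above for protein S. The last ratio is therefore not one of protein S to its own receptors.

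The integrin subunits parted. Itgb3, the beta subunit that pairs with the product of Itgav in phagocytes and endothelium and with that of Itga2b in platelets, had 171 and 237 counts in the baicalein livers and 76 and 50 counts in the saline livers. At 11.8 and 11.8 CPM against 4.47 and 3.65 CPM the groups were apart, with a log2 fold change of 1.54 (SE 0.20, 95% interval 1.09 to 1.98, adjusted p = 0.00129, edgeR). Itgav, the alpha subunit, had 41.1 and 45.0 CPM in the baicalein livers and 44.5 and 42.6 CPM in the saline livers, which overlapped. Its log2 fold change was -0.02 (SE 0.09, 95% interval -0.23 to 0.20, adjusted p = 0.933, edgeR). Itgb3 stood at 52.1% and 47.9% of the Itgav FPKM with baicalein and at 18.3% and 15.6% with saline.

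Other subunits and platelet markers were read beside Itgb3. Itgb5, another beta partner of Itgav, had 105 and 90.8 CPM in the baicalein livers and 91.1 and 92.8 CPM in the saline livers (log2 fold change 0.09, adjusted p = 0.642, edgeR). Of 13 tested integrin partners and ligands, Itga8 was higher (log2 fold change 1.11, SE 0.19), and Itga5 (-0.50, SE 0.10) and Spp1 (-1.16, SE 0.11) were lower. Spp1 encodes osteopontin, a ligand of these integrins. The share of this list called higher, 7.69%, was near the 7.65% over all tested genes. Lower calls made up 2 of the 13, against 7.90% of all tested genes. Itga8 did not pass with baicalein 2 left out (adjusted p = 0.0595), nor Itga5 with saline 2 or baicalein 1 left out (largest 0.0814). Itga2b, the platelet partner, was at 4.47 and 3.04 CPM against 3.12 and 2.55 CPM (log2 fold change 0.40, adjusted p = 0.481, edgeR). Summed over 11 platelet and megakaryocyte markers the livers had 7.91 and 5.44 CPM with baicalein and 7.29 and 7.07 CPM with saline, Gp1bb had no count, and Ppbp, a platelet chemokine gene, was lower (log2 fold change -2.22, adjusted p = 0.0401, edgeR). Ppbp did not pass in any fit to 3 livers (largest adjusted p 0.353), nor, with all 4 livers, in DESeq2 (0.0921), with no filter on low counts (0.0597) or with the replicate number blocked (0.130).

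Of the scavenger receptors, Stab1, made by sinusoidal endothelium and some macrophages, had 61.8 and 62.5 CPM in the baicalein livers and 53.7 and 48.6 CPM in the saline livers. The groups did not overlap, but the step was small, with a log2 fold change of 0.28 (SE 0.09, 95% interval 0.07 to 0.49), and it did not pass (adjusted p = 0.0780, edgeR). It passed with upper-quartile scaling (adjusted p = 0.0433, edgeR) and with the crossed pairs chosen after the data were seen (0.0267). These fits called 8.98% and 14.3% of all tested genes higher, against 7.65% in the main fit. Its relative Stab2, a sinusoidal endothelial receptor for the same lipid, was called higher at 105 and 103 CPM with baicalein against 70.7 and 67.3 CPM with saline (log2 fold change 0.59, SE 0.09, adjusted p = 0.00353, edgeR). The ratio of Stab1 to Stab2 FPKM was 0.501 and 0.517 with baicalein and 0.646 and 0.615 with saline.

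Lrp1 had 17733 and 21552 counts in the baicalein livers and 17614 and 15487 counts in the saline livers, that is 1219 and 1075 CPM against 1035 and 1130 CPM. These ranges overlapped. With the deepest counts of the 10 genes, its log2 fold change was 0.08 (SE 0.11, 95% interval -0.17 to 0.34, adjusted p = 0.680, edgeR). Lrpap1, which encodes the chaperone that escorts Lrp1 through the secretory pathway, was likewise close, at 59.5 and 55.5 CPM with baicalein and 53.6 and 55.4 CPM with saline (log2 fold change 0.08, adjusted p = 0.633, edgeR).

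**Figure D4:**
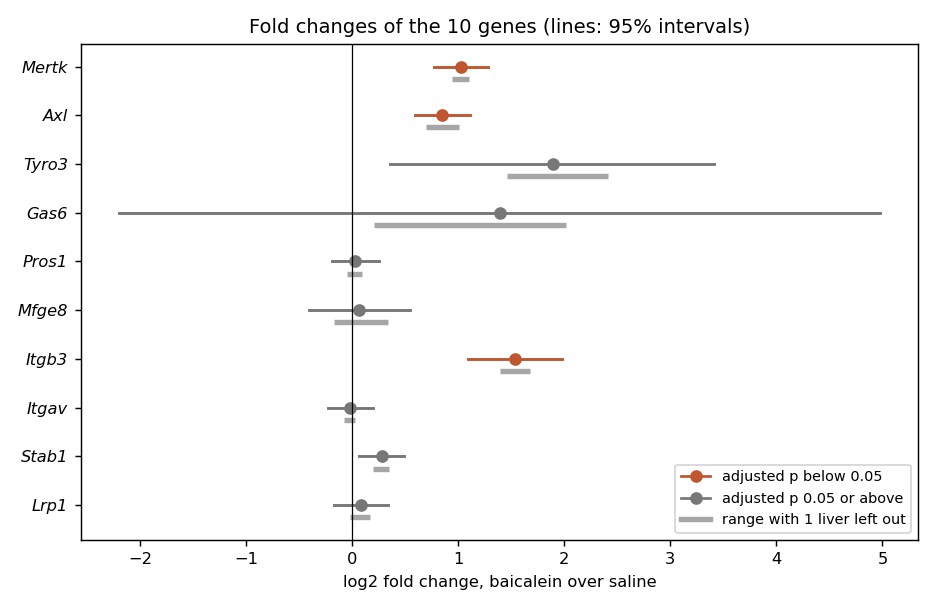
Log2 fold change of baicalein over saline for the 10 genes, with 95% intervals as thin lines and the range of fold changes with 1 liver left out as thick grey bars. Mertk, Axl and Itgb3 (1.03, 0.85 and 1.54) pass the threshold, and Gas6 has the widest interval, from -2.20 to 4.98.

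In bulk liver, fewer cells of a type and less RNA per cell cannot be told apart, so markers of the cells that carry these receptors were read beside them. Over all tested genes 7.65% were called higher and 7.90% lower. Of 14 Kupffer cell markers, 12 were called higher and 0 lower, with a median log2 fold change of 0.62. Their summed level was 1481 and 1273 CPM in the baicalein livers and 977 and 870 CPM in the saline livers. Without saline 1, saline 2, baicalein 1 or baicalein 2, the number called higher was 8, 5, 5 and 12. Marco, a scavenger receptor of Kupffer cells, led with 29.9 and 26.2 CPM against 8.99 and 7.88 CPM (log2 fold change 1.73, SE 0.14, adjusted p = 9.25e-05, edgeR). Of 11 sinusoidal endothelial markers, 9 were called higher, with a median of 0.59 and sums of 733 and 736 CPM with baicalein against 516 and 443 CPM with saline. Without the same livers in turn the number was 9, 3, 4 and 5. Of 14 stellate cell and fibroblast markers 6 were higher, with the smallest p for Dcn (log2 fold change 1.34, SE 0.10), and of 8 tested monocyte and recruited macrophage markers 2 were higher, Lyz2 (0.87, SE 0.09) and Plac8 (1.67, SE 0.29). In fits that dropped saline 1 or saline 2, Plac8 did not pass (largest adjusted p 0.275), nor did it in limma-voom on all 4 livers (0.0786). Not all marker lists rose: of 12 hepatocyte markers 4 were higher and 3 lower, and of 6 tested dendritic cell markers 0 were called. The part of these cell types in the receptor values was not tested.

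Ratios of Mertk and Axl to single Kupffer markers, chosen after the values were seen, showed how far the genes moved together. The ratio of Mertk to Adgre1 FPKM was 0.454 and 0.541 with baicalein and 0.410 and 0.607 with saline, so the groups overlapped. To Vsig4 it was 0.213 and 0.272 against 0.219 and 0.297, and to Csf1r 0.302 and 0.358 against 0.222 and 0.308, which overlapped too. To Clec4f, which Kupffer cells alone make in mouse liver, it was 0.0916 and 0.106 with baicalein and 0.0606 and 0.0721 with saline, with no overlap. The ratio of Axl to Adgre1 was 0.776 and 0.936 with baicalein and 0.934 and 0.995 with saline, so the groups overlapped. To Vsig4 it was 0.364 and 0.471 with baicalein and 0.499 and 0.487 with saline, lower in both baicalein livers. To Csf1r it was 0.515 and 0.619 against 0.505 and 0.505, and to Clec4f 0.156 and 0.183 against 0.138 and 0.118, both higher in both baicalein livers. The direction for Axl thus depended on the marker.

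The 4 genes with a mean of at least 5 CPM whose pattern over the 4 livers was closest to that of Mertk were Ctsc, Map2k6, Lbh and Zeb2. Their root mean square distances to Mertk in centred log2 CPM were 0.00939, 0.0259, 0.0321 and 0.0374. Ctsc, encoding the lysosomal protease cathepsin C, had 181 and 179 CPM in the baicalein livers and 85.2 and 95.5 CPM in the saline livers.

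Genes around these receptors in the same process were read from 10 lists, which together held 133 tested genes. Of these, 25 were higher and 6 lower, with a median log2 fold change of 0.17. Some genes stand both in these lists and in the marker lists above, so the counts are not separate. Among them are Marco, Timd4, C1qa, C1qb, C1qc and Stab2. Over all tested genes 7.65% were higher and 7.90% lower, and the counts of each list below are to be read beside these shares. Without saline 1, saline 2, baicalein 1 or baicalein 2 the number higher was 14, 12, 21 and 19.

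Among other uptake receptors, 6 of 18 tested were higher and 0 lower, with a median log2 fold change of 0.64. Besides Marco and Stab2 these were Trem2, Timd4, Clec7a and Itgb2. Clec7a did not pass where saline 1 or baicalein 1 was dropped (largest adjusted p 0.0908) or with the replicate number blocked, and Itgb2 passed only in the leave-out fit without saline 2 (largest of the others 0.0707). Timd4, the phosphatidylserine receptor Tim-4 of resident macrophages, had 21.6 and 18.6 CPM with baicalein against 10.2 and 9.99 CPM with saline (log2 fold change 0.99, SE 0.14, adjusted p = 0.00201, edgeR). Trem2, a lipid receptor named in the title of the study, had 4.68 and 4.84 CPM against 0.118 and 0.292 CPM (log2 fold change 4.53, SE 0.50), but it is 1 of 3 genes in the table whose deposited counts and FPKM part by over 1%. Adgrb1, a receptor best known from brain, had no count in any liver.

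Among other bridging proteins and opsonins, 5 of 15 were higher and 1 lower. The subunits of complement C1q were all called, C1qa with a log2 fold change of 0.59, C1qc with 0.49 and C1qb with 0.42. C3, the central complement protein, was at 15491 and 13692 CPM in the baicalein livers and 9101 and 9311 CPM in the saline livers (log2 fold change 0.66, SE 0.12, adjusted p = 0.00656, edgeR). The mannose-binding lectin genes parted, Mbl2 being higher (0.71, SE 0.11) and Mbl1 lower (-0.56, SE 0.11). With saline 1 or saline 2 dropped, C3 and Mbl2 did not pass (largest adjusted p 0.274 and 0.120), and with saline 2 dropped, neither did C1qa and Mbl1 (0.0503 and 0.117). C1qc and C1qb passed only in the leave-out fit without baicalein 2 (largest adjusted p of the others 0.177 and 0.251), and blocking the replicate number ended the C1qb call.

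Signals that attract or hold off phagocytes gave 2 higher (15.4%) and 1 lower of 13, against 7.65% higher and 7.90% lower over all tested genes. Sirpa, the receptor for the do-not-eat-me signal CD47, had 56.9 and 46.9 CPM with baicalein and 31.2 and 31.8 CPM with saline (log2 fold change 0.72, SE 0.11, adjusted p = 0.00324, edgeR). Siglece, an inhibitory sialic acid receptor of myeloid cells, was higher (1.01, SE 0.21), and Sphk2, a sphingosine kinase, was lower (-0.57, SE 0.10). Siglece passed only in the leave-out fit without saline 1 (largest adjusted p of the others 0.0960), and Sphk2 failed where saline 2 or baicalein 2 was dropped (largest 0.0560). Among genes of phosphatidylserine exposure, 2 of 9 were higher, the flippase genes Atp11a (0.83, SE 0.17) and Atp8a1 (1.33, SE 0.32). Among the leave-out fits, Atp11a passed only where baicalein 1 was dropped and Atp8a1 only where saline 1 was dropped; the largest adjusted p were 0.127 and 0.179. Neither passed once the replicate number was blocked.

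Inside the phagocyte, 4 of 21 genes of the engulfment machinery were higher and 0 lower, and their median log2 fold change was 0.10. They were Vav1 (1.11, SE 0.19), Rac2 (0.65, SE 0.14), Dock2 (0.88, SE 0.21) and Ptpn6 (0.42, SE 0.12), which are typical of blood-derived cells and encode an exchange factor, a small GTPase, another exchange factor and a phosphatase. None of the 4 passed where baicalein 2 was dropped, and the largest adjusted p over the leave-out fits were 0.0588, 0.123, 0.142 and 0.207. Rac2 also failed where saline 2 or baicalein 1 was dropped, Dock2 where saline 1 or baicalein 1 was dropped, and Ptpn6 in every leave-out fit. Dock2 and Ptpn6 failed too once the replicate number was blocked, and Ptpn6 in DESeq2 (adjusted p = 0.118). In phagosome maturation, 1 of 16 was higher (6.25%) and 1 lower, near the 7.65% higher and 7.90% lower over all tested genes. Cybb, the catalytic subunit of the phagocyte oxidase, had 24.1 and 26.9 CPM with baicalein and 14.8 and 12.0 CPM with saline (0.93, SE 0.14, adjusted p = 0.00308, edgeR), and Map1lc3a, an LC3 gene, was lower (-0.74, SE 0.12).

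After uptake, phagocytes export the cholesterol of their cargo under LXR and other nuclear receptors, which also raise Mertk in macrophages. In that list 3 of 15 were higher and 0 lower, with a median log2 fold change of 0.00. Mylip, an LXR target that lowers the LDL receptor, had 22.9 and 18.3 CPM with baicalein and 10.7 and 10.6 CPM with saline (0.95, SE 0.15, adjusted p = 0.00362, edgeR). The LXR gene Nr1h3 (0.06, adjusted p = 0.743) and the LXR target Abca1 (-0.14, adjusted p = 0.375) were not called. Npc2, a lysosomal cholesterol carrier (0.48, SE 0.10), and Ucp2, a mitochondrial carrier (0.53, SE 0.12), were higher. In leave-out fits Npc2 passed only where baicalein 2 was dropped and Ucp2 only where baicalein 1 was dropped (largest adjusted p 0.142 and 0.108), and Ucp2 failed once the replicate number was blocked.

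Of 8 tested genes that shed TAM receptors, restrain shedding, or carboxylate Gas6 and protein S, 0 passed in edgeR, 1 (Timp3) had an unadjusted p below 0.05, and 1 (Timp3) passed in DESeq2. Adam17, the protease that cleaves Mertk, had 23.4 and 23.7 CPM with baicalein and 24.3 and 23.6 CPM with saline (log2 fold change -0.02, adjusted p = 0.921, edgeR). Ggcx, the carboxylase that makes the Gla residues, had a log2 fold change of 0.09 (adjusted p = 0.676). Timp3, an inhibitor of such proteases, had 29.9 and 47.1 CPM with baicalein and 17.6 and 14.4 CPM with saline, and missed the threshold (1.27, SE 0.27, adjusted p = 0.0561, edgeR). Timp3 passed in DESeq2 (adjusted p = 6.98e-05) and with the crossed pairs chosen after the data were seen (3.62e-14, edgeR). The crossed pairs called 14.3% of all tested genes higher, against 7.65% without pairs. In the other alternatives on all 4 livers Timp3 missed the threshold (largest adjusted p 0.173, edgeR with the replicate number blocked). With 1 liver left out its log2 fold change ran from 0.90 to 1.54. Of 8 tested genes that relay or brake TAM signalling, Pik3r1, a regulatory subunit of PI3 kinase, was higher (0.55, SE 0.13) and Socs3, an inhibitor of cytokine signalling, was lower (-0.78, SE 0.16). Pik3r1 passed in 1 leave-out fit, that without baicalein 1 (largest of the others 0.155), and Socs3 failed where saline 2 or baicalein 2 was dropped (largest 0.104). Blocking the replicate number ended both calls.

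**Figure D5:**
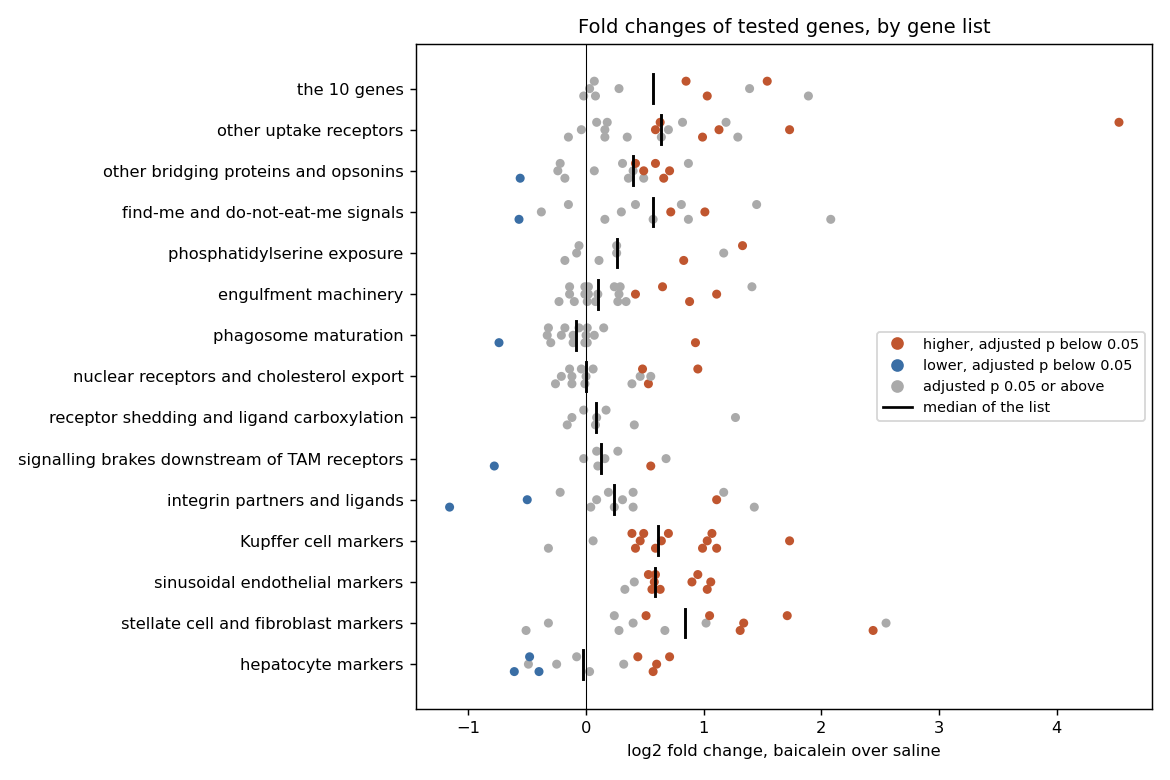
Log2 fold change of baicalein over saline for each tested gene (points, coloured by call) in the 10 genes, the 10 process lists and 4 marker lists; black bars are list medians. Medians are 0.57 for the 10 genes, 0.62 for Kupffer cell markers and -0.08 for phagosome maturation.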

How the data were processed

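RNA of 2 baicalein and 2 saline livers was sequenced; per the labels' protocols, libraries came from total RNA with a SMARTer mRNA kit. The authors deposited 1 table with a read count and an FPKM value per gene and liver. Per the submitters' processing notes the build was mm10; the sources used here name no aligner, counter or strand setting. The table's positions of the 10 genes do not equal GENCODE M21 (mm10), so they are not printed. On M21, exons of Itgav, Stab1 and Gas6 share 5.90%, 1.09% and 1.33% of their bases with genes on the other strand, whose reads cannot be told apart without strand.

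The deposited counts were filtered (filterByExpr, 12657 of 21959 genes), TMM-scaled and fitted in edgeR 4.0.16 under R 4.3.3 (quasi-likelihood test, robust, two-sided, Benjamini-Hochberg over all tested genes, threshold 0.05). The SE is the log2 fold change divided by the root of F. CPM use normalised library sizes. Group means rest on n = 2; an exact permutation test of 2 against 2 cannot reach 0.05. The deposited FPKM, which are per length, were used for levels between genes; for each of the 10 genes they match the counts within 1%. The fit was tested on simulated data.

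The 10 genes and the lists were chosen with earlier results of these data known. The text names the 10 genes, at most 4 called genes per process list (those of smallest p whose groups do not overlap), the 1 of smallest p where none was called, and at most 2 per marker list; other genes were named after their values were seen. Likeness used log2(CPM + 0.5). Alternatives were RLE and upper-quartile scaling, DESeq2 1.42.0, limma-voom (limma 3.58.1), other filters, the replicate number as a block, each liver left out and, added after seeing the data, crossed pairs and scaling without skeletal muscle genes.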

Additional observations from a re-analysis of the deposited data

How the results depend on the processing

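Mertk, Axl and Itgb3 passed under all 13 alternatives, with log2 fold changes of 0.94 to 1.10, 0.70 to 1.01 and 1.39 to 1.68 and adjusted p up to 0.0119, 0.0311 and 0.0246. Under the replicate block 531 genes were higher and 601 lower over the table, against 968 and 1000 without it, and 3 of the 10 genes were called; same-numbered livers deviated in opposite directions (correlation -0.73), so the numbers are not shown to pair the livers. Crossed replicate pairs, added after the data were seen, set baicalein 1 with saline 2 and baicalein 2 with saline 1. With them 1809 genes were called higher and 1689 lower over the table. Of the 10 genes 5 were higher, with Tyro3 (1.90) and Stab1 (0.28) added, and 43 genes of the process lists were higher. Upper-quartile scaling, which moved the median of all genes to 0.06, gave Stab1 0.33 (passing) and Itgav 0.04, above 0, and called 1136 higher and 830 lower. With 1 liver left out, 521 to 665 genes were higher and 535 to 663 lower, 3 to 4 of the 10 genes were higher, and 12 to 21 genes of the process lists were higher and 2 to 8 lower; log2 fold changes ran from -0.05 to 0.09 for Pros1, -0.08 to 0.03 for Itgav, -0.17 to 0.34 for Mfge8, -0.02 to 0.17 for Lrp1 and 0.21 to 2.02 for Gas6. Fewer livers also leave fewer degrees of freedom. Gja1, close to Gas6 in pattern, ran from -0.04 without baicalein 2 to 2.19 without baicalein 1. Leave-out ranges that crossed 0 were also -0.03 to 0.19 for Itgb5, -0.03 to 0.19 for Ggcx and -0.05 to 0.16 for Nr1h3, and upper-quartile scaling gave Adam17 0.03. The order of the 10 genes by level was the same in TPM. At a mean CPM of at least 1, Tyro3 was not tested. Counts of 3 to 30 limit Tyro3.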

Other observations

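Red cell genes were lower in the baicalein livers. Alas2, which starts heme synthesis in erythroid cells, had 20.6 and 23.1 CPM in the baicalein livers and 164 and 142 CPM in the saline livers (log2 fold change -2.81, SE 0.12, adjusted p = 2.04e-06, edgeR). Of 5 tested erythroid markers 4 were lower and 0 higher, and their sum over 7 genes in the table was 138 and 153 CPM with baicalein and 920 and 659 CPM with saline. Hbb-bs, a beta globin, did not pass where baicalein 1 or baicalein 2 was dropped (largest adjusted p 0.150). Mesothelial marker sums were higher, at 8.53 and 17.8 CPM in the baicalein livers against 1.65 and 3.21 CPM in the saline livers. For all 5 tested markers both baicalein livers lay above both saline livers, as for 29.7% of all tested genes. Of the 5, 1 (Lrrn4) was called higher, against 7.65% of all tested genes. Lrrn4 had 10 and 45 counts with baicalein and 0 with saline. Levels were low, with summed counts of 124 and 357 with baicalein and 28 and 44 with saline.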
